A study of Mus musculus with 60 samples.

Results

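The genes described here carry and brake inflammatory signalling in the regenerating liver. The receptor genes are the IL-6 receptor chain Il6ra, the shared signalling chain Il6st (gp130), the oncostatin M receptor Osmr and the interleukin-1 receptor Il1r1. Stat3 is a transcription factor and Socs3 its feedback inhibitor. The others are the NF-kB inhibitors Nfkbia and Tnfaip3, the IkB protein Bcl3 and the RNA-binding protein Zfp36. The genes were chosen by symbol, with earlier results of these data known. All 10 were found among the 14620 genes of the time course and in each comparison table. RNA was sequenced from livers of male C57BL/6 mice aged 8 weeks, after partial hepatectomy (PHx, surgical removal of most of the liver) or a sham operation. The operation took place between 8 and 9 in the morning, with livers taken every 4 h from 4 to 32 h, or between 8 and 9 at night, with livers taken at 4 and 24 h. The groups, each of 3 mice, were therefore morning PHx and morning sham at 8 times, and night PHx and night sham at 2 times, 60 libraries in all. The labels name no transgene and no agent beyond the operation. A night operation moved both the surgery and the collection of tissue on the clock, so these cannot be told apart.

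As background, IL-6 reaches hepatocytes after liver resection, largely from Kupffer cells, the macrophages of the liver. It binds IL6RA, which pairs with gp130 and activates JAK kinases, and these phosphorylate STAT3. STAT3 then turns on acute phase genes and Socs3, whose protein blocks the receptor and its kinases. TNF and IL-1 act in parallel through NF-kB, which turns on its own inhibitors: Nfkbia encodes IkB alpha, which holds NF-kB in the cytoplasm, and Tnfaip3 encodes A20, which edits ubiquitin chains on upstream adaptors. Zfp36 encodes tristetraprolin, which speeds the decay of cytokine mRNAs.

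Time course levels below are log2(value + 1), as deposited, in a unit that the sources used here do not give. Changes are PHx minus sham on that scale, with the standard error of a limma fit over 48 libraries. Adding 1 compresses the changes of Osmr and Tnfaip3, whose values were low. Rose and fell are used where the Benjamini-Hochberg adjusted p over 12957 genes was under 0.05. The labels do not say which mice were operated on or handled together, and the p-values measure the spread between the mice of a group. In whole liver, fewer cells of a type and less RNA per cell cannot be told apart.

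Some libraries stand apart. Sham 4 h replicate 1 listed 3422 genes at 0, the most of any library, and its deviations from the mean matched night sham replicate 3 of the 4 h table best (r = 0.31 across genes). Sham 4 h replicate 3 matched the library labelled replicate 1 there (r = 0.41), while the morning PHx 4 h and the 6 morning 24 h libraries matched their own labels. PHx and sham at 4 h also carry library IDs of different series, so the series and the operation cannot be told apart at that time. Summed hepatocyte markers (6 of 6 in the table, albumin among them) were at log2 15.0 to 16.0 in PHx libraries and 15.4 to 16.4 in sham libraries. At 8, 12, 20, 24 and 32 h the PHx livers lay below the sham livers without overlap, at 15.0 to 15.2 and 15.4 to 15.7 at 24 h. Pancreatic acinar markers (6 of 7) stood at log2 12.5 in PHx 4 h replicate 3 and 10.8 in PHx 16 h replicate 3, against 7.72 at most in sham libraries. The 24 h count tables held 24.6 to 30.2 M reads per library, and the depth of the time course libraries is unknown.

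Among the 10 genes, more rose than fell at each of the 8 times. From 4 to 32 h, 7, 6, 4, 6, 7, 4, 5 and 4 of the 10 rose. Il6st fell at 4 h and Zfp36 at 8 h. Of all genes, 46.9, 24.7, 16.2, 13.7, 18.4, 12.3, 20.5 and 15.4% changed at the same times, of which 9.32, 6.04, 7.57, 7.31, 12.5, 9.19, 14.9 and 11.8% of all genes rose and 37.6, 18.7, 8.63, 6.35, 5.87, 3.11, 5.59 and 3.6% fell. The median change of the 10 genes was 0.90 at 4 h, where the median of all genes was -0.32, and 0.55 at 32 h, where that of all genes was 0.14. The PHx and sham libraries did not overlap in 7, 8, 8, 8, 7, 6, 6 and 4 of the 10 from 4 to 32 h, against 46.1, 45.2, 38.3, 32.3, 34.7, 29, 32.6 and 39% of all genes.

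These counts rested on single libraries at some times. Of the 8 changes at 4 h, 5 remained without sham 4 h replicate 3 and 8 without the doubtful sham 4 h replicate 1. Of 4 at 12 h, 2 remained without PHx replicate 1 or without sham replicate 1 or 2. Of 4 at 24 h, 2 remained without PHx replicate 1 or 2 or sham replicate 2. Of 5 at 28 h, 3 remained without PHx replicate 2, and of 4 at 32 h, 2 remained without PHx replicate 3. With the libraries of 1 time alone in the fit, 2 members changed at 16 h, 3 at 20 h and 0 at 28 h, against 6.2, 9.44 and 4.17% of all genes.

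**Figure D1:**
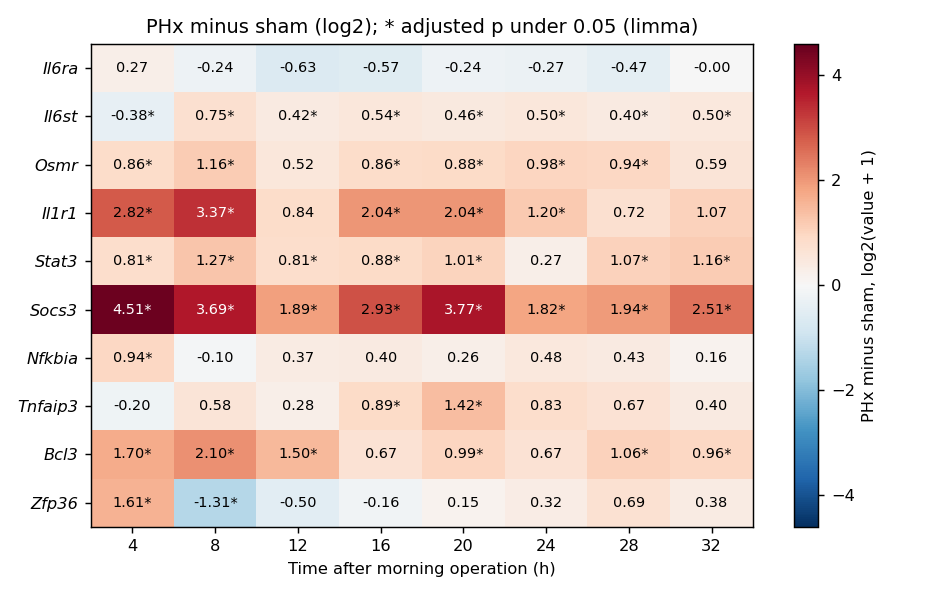
Change of each gene (rows) at each time after a morning operation (columns), as PHx minus sham in log2(value + 1), with the value printed in each cell. An asterisk marks an adjusted p under 0.05 (limma); the Socs3 row is marked at all 8 times, from 1.82 to 4.51, and the Il6ra row at none.

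Promoter sequences are shown for Socs3 and Zfp36 and for Nfkbia, Bcl3 and Tnfaip3, since these windows held matches to the motifs of STAT factors or NF-kB. All 10 genes matched the RefSeq promoter table by symbol (12 windows, GRCm38.p6), each window running from 250 bases before to 50 after a start. The windows were searched for the STAT motif TTCNNNGAA, which reads the same on both strands, and for the NF-kB consensus on both strands. The STAT motif was found in 2 of the 12 windows, those of Socs3 and Zfp36, and in 8.30% of all 32851 windows of the table. The NF-kB consensus was found in 4, those of Nfkbia, Bcl3, 1 of 2 Tnfaip3 windows and 1 of 2 Il1r1 windows, against 8.46% of all windows. No match was found in the windows of Il6ra, Il6st, Osmr and Stat3. A match describes letters only.

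The windows with a STAT match follow, with the match in capitals. Socs3 is read from chr11:117969317-117969616, minus strand, with its match at bases -154 to -146 from the start, and Zfp36 from chr7:28379179-28379478, minus strand, with its match at -17 to -9.
Socs3: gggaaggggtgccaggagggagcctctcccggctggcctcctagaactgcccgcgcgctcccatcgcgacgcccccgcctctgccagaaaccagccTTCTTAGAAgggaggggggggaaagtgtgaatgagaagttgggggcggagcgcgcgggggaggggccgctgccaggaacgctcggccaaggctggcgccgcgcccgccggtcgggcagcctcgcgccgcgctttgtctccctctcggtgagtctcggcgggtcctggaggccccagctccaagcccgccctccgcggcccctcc
Zfp36: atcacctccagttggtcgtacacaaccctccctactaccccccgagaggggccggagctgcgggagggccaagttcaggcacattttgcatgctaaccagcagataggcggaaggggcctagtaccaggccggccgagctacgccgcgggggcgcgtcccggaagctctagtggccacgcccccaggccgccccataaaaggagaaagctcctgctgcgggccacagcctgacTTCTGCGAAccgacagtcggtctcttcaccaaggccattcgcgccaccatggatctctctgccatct

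Windows of Nfkbia, Bcl3 and Tnfaip3 follow, with each match to the NF-kB consensus in capitals. Nfkbia is read from chr12:55492598-55492897, Bcl3 from chr7:19822706-19823005 and Tnfaip3 from chr10:19015361-19015660, all on the minus strand. The match lies at bases -29 to -20 in Nfkbia and at 3 to 12 in Bcl3. Tnfaip3 holds 2, at -125 to -116 and at -12 to -3. In Tnfaip3 at -125 and in Bcl3 the same 10 bases match on both strands, and the other matches are on the opposite strand.
Nfkbia: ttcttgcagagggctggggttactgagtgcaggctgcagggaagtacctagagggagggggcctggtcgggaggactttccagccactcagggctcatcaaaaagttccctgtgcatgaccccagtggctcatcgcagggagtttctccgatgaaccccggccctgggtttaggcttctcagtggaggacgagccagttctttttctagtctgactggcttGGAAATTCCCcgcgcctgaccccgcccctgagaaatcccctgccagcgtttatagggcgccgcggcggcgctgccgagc
Bcl3: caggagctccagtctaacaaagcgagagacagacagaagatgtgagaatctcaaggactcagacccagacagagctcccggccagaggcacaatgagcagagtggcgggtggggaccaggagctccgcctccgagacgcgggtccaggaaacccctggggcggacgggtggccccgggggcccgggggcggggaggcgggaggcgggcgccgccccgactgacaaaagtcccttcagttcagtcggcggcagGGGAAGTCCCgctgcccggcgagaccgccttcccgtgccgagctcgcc
Tnfaip3: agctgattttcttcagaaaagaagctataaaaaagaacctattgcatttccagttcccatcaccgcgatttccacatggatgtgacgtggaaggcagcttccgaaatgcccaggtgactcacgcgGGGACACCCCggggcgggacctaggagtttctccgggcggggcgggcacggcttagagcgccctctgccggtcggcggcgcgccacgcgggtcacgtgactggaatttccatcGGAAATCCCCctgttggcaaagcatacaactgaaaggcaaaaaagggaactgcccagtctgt

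Socs3, the gene with a STAT match whose protein is the classic feedback inhibitor of IL-6 signalling, rose at all 8 times. At 4 h its levels were 6.52, 6.55 and 6.44 in PHx livers, against 1.80, 2.19 and 1.98 in sham livers. The groups were far apart, and the change was 4.51 ± 0.42 (limma, adjusted p = 2.0e-10). At 20 h the levels were 4.92, 5.85 and 4.98 in PHx livers, against 1.41, 1.63 and 1.40 in sham livers, a change of 3.77 ± 0.42. The lowest PHx library at any time stood at 3.62 and the highest sham library at 3.51, so all 24 PHx libraries lay above all 24 sham libraries. The change was smallest at 24 h, at 1.82 ± 0.42 (limma, adjusted p = 0.0033), where PHx livers had 3.63, 4.02 and 4.36 and sham livers 1.30, 2.67 and 2.58. At 8, 12, 16, 28 and 32 h it was 3.69, 1.89, 2.93, 1.94 and 2.51. The change varied with time (limma F-test, adjusted p = 9.6e-04). The PHx mean was highest at 4 h (6.50) and lowest at 24 h (4.00), and the sham mean highest at 12 h (2.97) and lowest at 20 h (1.48). The 28 h rise was not called with the libraries of that time alone (adjusted p = 0.13), where replicate 3 was lowest in both groups.

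Stat3, the transcription factor itself, rose at 7 of 8 times by 0.81 to 1.27. At 8 h its levels were 5.44, 5.25 and 5.42 in PHx livers, against 4.25, 3.92 and 4.12 in sham livers, and the groups did not overlap. That change was 1.27 ± 0.25 (limma, adjusted p = 1.8e-04). At 32 h the levels were 4.94, 5.99 and 5.57 in PHx livers, against 4.31, 4.24 and 4.46 in sham livers, a change of 1.16 ± 0.25. At 4 h the groups overlapped, with 5.49, 6.17 and 4.84 in PHx livers and 5.33, 4.57 and 4.16 in sham livers. The change there was 0.81 ± 0.25 and was not called without PHx replicate 2 (0.48) or sham replicate 3 (0.55). It was 1.14 ± 0.25 without sham replicate 1. The rise at 12 h (0.81) was not called without PHx replicate 1 (0.63) or sham replicate 1 (0.80) or 2 (0.69), and that at 16 h (0.88) not without sham replicate 3 (0.79).

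At 24 h the deposited tables differed for Stat3. In the time course its change was 0.27 ± 0.25 (limma, adjusted p = 0.55). In the count tables of the livers with the same labels it was 0.80 ± 0.15 (edgeR quasi-likelihood test, adjusted p = 0.0027), with read counts scaled to library size (CPM) of 109, 87.7 and 96.5 in PHx livers and 45.4, 56.1 and 66.7 in sham livers, which did not overlap. Across the 11364 genes tested in both, the changes of the tables correlated with r = 0.90. Socs3 changed by 1.82 in the time course and 1.85 in the counts, and Il1r1 by 1.20 and 1.24. Osmr rose in both (0.98 and 1.56), while Bcl3 (0.67 and 0.79) and Tnfaip3 (0.83 and 1.38) were called in the counts alone and Il6st (0.50 and 0.33) in the time course alone. The cause of these differences was not tested.

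The receptor chains did not share 1 course. Il6ra, the chain that binds IL-6, did not pass the test at any time, with changes from -0.63 ± 0.27 at 12 h to 0.27 ± 0.27 at 4 h. Its levels at 12 h were 2.77, 2.70 and 2.62 in PHx livers, against 3.48, 2.92 and 3.58 in sham livers. Those groups did not overlap, and neither did those at 16 h, but the adjusted p values were 0.11 and 0.17 (limma). After TMM scaling, which brings the median of all genes at 4 h to 0.01, the 4 h change was 0.70 and called (adjusted p = 0.049). Il6ra levels varied with time in PHx livers (limma F-test, adjusted p = 2.5e-04) and in sham livers (2.0e-04). In PHx livers the mean was lowest at 24 h (1.50) and highest at 4 h (2.79), and in sham livers it was lowest at 24 h (1.77) and highest at 12 h (3.33). Its change did not pass the test of variation with time (adjusted p = 0.42).

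Il6st, the gp130 chain that the receptors for IL-6, oncostatin M and related cytokines share, fell at 4 h and rose at the other 7 times. At 4 h its levels were 4.01, 4.08 and 3.86 in PHx livers, against 4.13, 4.48 and 4.48 in sham livers, a change of -0.38 ± 0.14 (limma, adjusted p = 0.021). This was close to the median of all genes at that time (-0.32), and after TMM scaling the change was 0.09 and not called. At 8 h the levels were 4.999, 4.57 and 4.91 in PHx livers, against 3.98, 3.98 and 4.28 in sham livers, a change of 0.75 ± 0.14 (limma, adjusted p = 6.9e-05). At 12, 16, 20, 24, 28 and 32 h it was 0.42, 0.54, 0.46, 0.50, 0.40 and 0.50. The change varied with time (limma F-test, adjusted p = 7.8e-04).

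The small Il6st changes were sensitive to single libraries. The rises at 8 and 16 h kept their call without any 1 library of their time and after TMM scaling. With the libraries of a time alone, the calls at 8 and 12 h were kept and those at 4, 16, 20, 24, 28 and 32 h lost (adjusted p = 0.059 at 16 h). The 4 h fall was lost without PHx replicate 3 (-0.32) or sham replicate 2 (-0.32) or 3 (-0.32), and the 12 h rise without PHx replicate 1 (0.43) or 2 (0.36) or sham replicate 1 (0.39), 2 (0.45) or 3 (0.42). The 20 h rise was lost without PHx replicate 2 (0.42) or 3 (0.44) or sham replicate 3 (0.44), and the 24 h rise without PHx replicate 2 (0.45) or sham replicate 2 (0.42). At 28 h it was lost without PHx replicate 2 (0.34) or 3 (0.37) or sham replicate 1 (0.42), 2 (0.40) or 3 (0.39), and at 32 h without PHx replicate 2 (0.38) or 3 (0.42) or sham replicate 2 (0.45). TMM scaling also took the call at 20 h (0.31), 24 h (0.35), 28 h (0.22) and 32 h (0.32).

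Osmr, the oncostatin M receptor, was low in sham livers and rose at 6 of 8 times. Its sham libraries lay between 0.43 and 0.98 and its PHx libraries between 0.93 and 2.54. The groups did not overlap at any of the 8 times. At 8 h the levels were 2.05, 1.50 and 1.88 in PHx livers, against 0.56, 0.66 and 0.74 in sham livers, a change of 1.16 ± 0.24 (limma, adjusted p = 4.0e-04). At 4, 16, 20, 24 and 28 h it was 0.86, 0.86, 0.88, 0.98 and 0.94, and at 12 and 32 h it was 0.52 and 0.59, with adjusted p = 0.15 and 0.091 (limma). The call was lost at 16 h without PHx replicate 2 (0.57) or sham replicate 2 (0.80), at 20 h without PHx replicate 1 (0.70), at 24 h without PHx replicate 1 (0.72) and at 28 h without PHx replicate 2 (0.56). The change did not pass the test of variation with time (limma F-test, adjusted p = 0.72).

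Il1r1, the signalling receptor for interleukin-1, had the largest early rise after that of Socs3. At 4 h its levels were 6.42, 6.17 and 6.08 in PHx livers, against 2.78, 3.80 and 3.63 in sham livers, a change of 2.82 ± 0.41 (limma, adjusted p = 7.9e-07). At 8 h they were 5.83, 5.80 and 5.78 in PHx livers, against 2.47, 2.16 and 2.65 in sham livers, a change of 3.37 ± 0.41. The groups were well separated at both times, and the 3 PHx livers at 8 h lay between 5.78 and 5.83. At 12 h the change was 0.84 ± 0.41 and not called, and at 16 and 20 h it was 2.04 at each. The PHx livers spread widely at both, at 3.67, 5.59 and 3.97 at 16 h and 5.06, 3.35 and 5.10 at 20 h. With the libraries of each time alone both calls were lost (limma, adjusted p = 0.082 and 0.058). At 24 h the change was 1.20 ± 0.41 with adjusted p = 0.049 (limma). That call was lost without any 1 of the 6 libraries of that time (1.10 to 1.31) and after TMM scaling (1.05). At 28 and 32 h the change was 0.72 and 1.07 and not called, though 1.53 and called at 32 h without PHx replicate 1. The change varied with time (limma F-test, adjusted p = 0.0012).

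**Figure D2:**
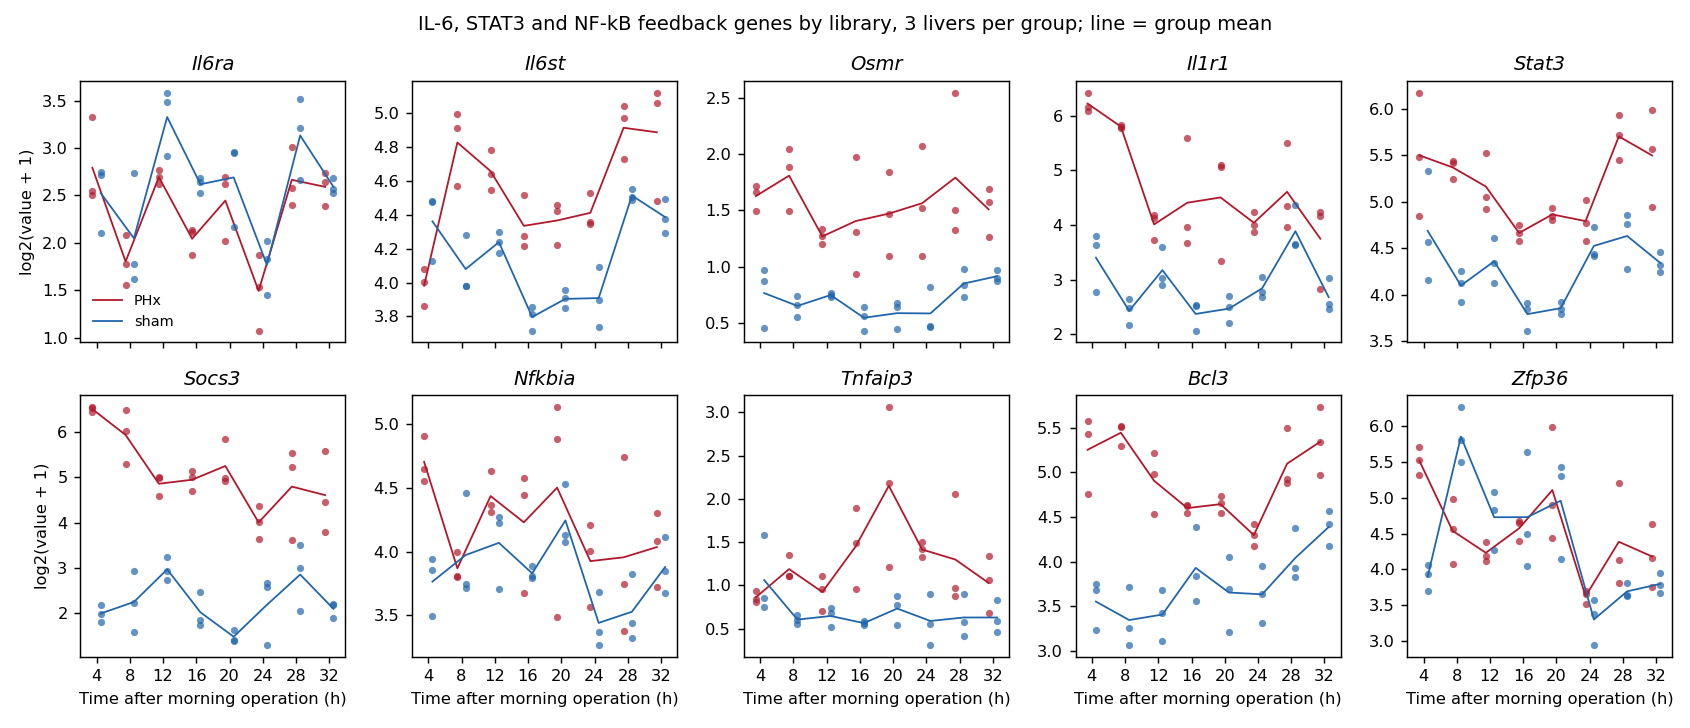
Levels of the 10 genes as log2(value + 1) against time after a morning operation, with 1 point per liver (PHx red, sham blue) and a line through the group means of 3. The Socs3 points of PHx and sham never overlap, Il6ra lines run close together, and Zfp36 in sham livers is highest at 8 h, with a mean of 5.85.

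Nfkbia, Tnfaip3 and Bcl3, whose windows are shown above, followed different courses. Nfkbia rose at 4 h alone: its levels were 4.91, 4.55 and 4.65 in PHx livers, against 3.94, 3.85 and 3.50 in sham livers. The groups did not overlap, and the change was 0.94 ± 0.30 (limma, adjusted p = 0.010), or 0.81 and not called without sham replicate 3. From 8 to 32 h it lay between -0.10 and 0.48, with no call. At 20 h PHx livers spread widely, at 4.88, 3.49 and 5.13, around sham livers at 4.13, 4.07 and 4.53. Neither the change (adjusted p = 0.55) nor the level in PHx livers (0.089) or sham livers (0.25) passed the limma F-test of variation with time.

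Tnfaip3, which encodes A20, rose at 16 and 20 h. At 4 h it stood at 0.93, 0.81 and 0.84 in PHx livers, against 0.75, 1.58 and 0.86 in sham livers, a change of -0.20 ± 0.29 and not called. At 8 h it stood at 1.11, 1.10 and 1.34 in PHx livers, against 0.59, 0.66 and 0.56 in sham livers. These did not overlap, and the change of 0.58 ± 0.29 was not called (limma, adjusted p = 0.15) but was with the libraries of 8 h alone (adjusted p = 0.0093). At 20 h it stood at 2.18, 1.21 and 3.06 in PHx livers, against 0.55, 0.87 and 0.77 in sham livers, a change of 1.42 ± 0.29 (limma, adjusted p = 6.6e-04). The groups did not overlap at 20 h, although 1 PHx liver was much lower than the others, and the call was lost with the libraries of 20 h alone (adjusted p = 0.11). At 16 h the change was 0.89 ± 0.29, and that call was lost without PHx replicate 2 (0.66) or 3 (0.86) or any 1 sham replicate (0.87 to 0.90), and with the libraries of 16 h alone (adjusted p = 0.093). At 24 h it was 0.83 ± 0.29 with adjusted p = 0.057 (limma), but 1.63 and called on a log2(value + 0.1) scale (adjusted p = 0.021) and called with the libraries of 24 h alone (adjusted p = 0.0496). The test of variation of the change with time gave adjusted p = 0.055 (limma F-test).

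Bcl3, an IkB protein that works in the nucleus with NF-kB subunits, rose at 6 of 8 times, and PHx and sham did not overlap at any of the 8. At 8 h its levels were 5.52, 5.52 and 5.30 in PHx livers, against 3.26, 3.71 and 3.06 in sham livers, a change of 2.10 ± 0.24 (limma, adjusted p = 3.7e-08). At 4 h the change was 1.70 ± 0.24 and at 12 h 1.50 ± 0.24. Later changes were smaller: 0.67 at 16 and 24 h (adjusted p = 0.059 and 0.066, limma) and 0.99, 1.06 and 0.96 at 20, 28 and 32 h. The 16 h value was 0.90 and called without sham replicate 2, and the 32 h value 0.77 and not called without PHx replicate 3. The change varied with time (limma F-test, adjusted p = 0.0045), and so did the level in sham livers (adjusted p = 0.0056), whose mean was lowest at 8 h (3.34) and highest at 32 h (4.39).

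Zfp36, the other gene with a STAT match, rose at 4 h and fell at 8 h. At 4 h its levels were 5.70, 5.53 and 5.31 in PHx livers, against 4.06, 3.70 and 3.93 in sham livers, a change of 1.61 ± 0.36 (limma, adjusted p = 3.3e-04). At 8 h they were 4.07, 4.98 and 4.57 in PHx livers, against 5.80, 5.49 and 6.26 in sham livers, a change of -1.31 ± 0.36 (limma, adjusted p = 0.0055). The groups did not overlap at either time, and the 8 h sham livers were the highest sham group. From 12 to 32 h the change lay between -0.50 and 0.69 without a call. Zfp36 varied with time in PHx livers (limma F-test, adjusted p = 7.7e-04) and in sham livers (4.1e-06), and so did its change (9.5e-04). The PHx means were highest at 4 h (5.51) and lowest at 24 h (3.63), and the sham means highest at 8 h (5.85) and lowest at 24 h (3.30).

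The rises at 4 h were also compared with sham livers at 28 h, taken at the same clock hour. Socs3 (3.65), Il1r1 (2.34), Zfp36 (1.82), Bcl3 (1.21), Nfkbia (1.18), Stat3 (0.87) and Osmr (0.78) rose against these as well, and Il6st fell by 0.53 (limma), 8 of the 10 against 46.4% of all genes. Without sham 4 h replicate 1 the same 8 genes changed, with Socs3 at 4.42, Il1r1 at 2.51, Bcl3 at 1.77, Zfp36 at 1.70, Nfkbia at 1.03, Osmr at 0.70 and Il6st at -0.50.

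Across the 8 times, the PHx minus sham difference varied for 5 of the 10 genes, against 43.5% of all genes. Levels varied with time in PHx livers for 8 of the 10 (71.5% of all genes) and in sham livers for 6 (50.7%). With only 8 to 20 h, which share 1 series of library IDs, the counts were 2 for the difference, 5 for PHx and 3 for sham, against 9, 19.9 and 6.93% of all genes. Socs3 (adjusted p = 0.032) and Bcl3 (0.030) were the 2 whose difference still varied (limma F-test).

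Individual PHx livers of 1 group could be far apart in several of these genes at once. At 28 h PHx replicate 2 was the highest of its group in Il1r1 (5.50, against 4.35 and 3.97 in the other PHx livers), Osmr (2.54, against 1.50 and 1.33), Tnfaip3 (2.05, against 0.87 and 0.97), Nfkbia (4.74, against 3.38 and 3.75) and Zfp36 (5.21, against 3.82 and 4.13). It was also the highest in Il6ra (3.01), Il6st (5.04), Stat3 (5.94) and Bcl3 (5.50). Socs3 was the only member in which it was not the highest (5.23, against 5.53 and 3.62). At 20 h PHx replicates 1 and 3 were high in Il1r1, Nfkbia and Tnfaip3, and replicate 2 was lowest in these but highest in Socs3 (5.85) and Zfp36 (5.98).

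Neutrophil markers were set beside these levels by library. Of the 8 markers, 6 were in the table, and their summed level was log2 2.03 to 6.00 in PHx libraries and 0 to 5.77 in sham libraries. At 4 h it was 5.07 to 6.00 in PHx livers and 0 to 3.17 in sham livers. Within these PHx livers, replicate 3 had the highest sum (6.00) but the lowest Il1r1 (6.08), Stat3 (4.84), Socs3 (6.44) and Zfp36 (5.31). Osmr was highest there (1.72). The neutrophil sum was 5.40 in PHx 28 h replicate 2, against 2.45 and 2.67 in the other PHx livers of that time. That 28 h library also had the highest hepatocyte sum of its group (16.0, against 15.3 and 15.4), so its deviation was not limited to neutrophil markers. Its Kupffer cell and sinusoidal endothelial sums, described below, were the lowest of the group. At 20 h the neutrophil sum was 4.87 and 5.25 in PHx replicates 1 and 3, against 3.19 in replicate 2. At 16 h PHx replicates 2 and 3 had 4.96 and 5.32, against 2.41 in replicate 1. Replicate 1 was also the lowest of these PHx livers in every member but Zfp36. Nfkbia was at 3.67 there, against 4.57 and 4.44 in replicates 2 and 3. Tnfaip3 was at 0.96, against 1.90 and 1.49, and Osmr at 0.93, against 1.97 and 1.30. Il1r1 was high in replicate 2 alone (5.59, against 3.67 and 3.97 in replicates 1 and 3). S100a9, a defining marker, was at 0 in none of the PHx libraries and in 6 sham libraries. Sham 8 h replicate 2 was high at 5.77; it was the lowest of its group in Il1r1 (2.16) and the highest in Socs3 (2.93) and Bcl3 (3.71). The monocyte list held Ly6c2, Ccr2, Plac8, Chil3 and Fn1 (5 of 5 in the table). Its sum lay higher in PHx livers than in sham livers without overlap at each of the 8 times. At 4 h the sums were 9.17 to 9.19 and 8.14 to 8.35. Only 3 of the 5 were tested singly: 2 rose at 4 h and 1 at each later time, with a median change of 0.05 at 12 h. The sum may therefore rest on few markers, and whether it follows the number of monocytes was not tested. Summed Kupffer cell markers (10 of 10 in the table) lay lower in PHx livers at 4 h, at 7.87 to 8.16 against 8.21 to 10.4 in sham livers. At that time 6 of the 10 markers fell, as did 37.6% of all genes. From 8 h on, apart from an overlap at 12 h, the sum lay higher in PHx livers, at 9.68 to 9.83 against 8.81 to 9.08 in sham livers at 28 h. Few single markers did so: 1 of the 10 rose at 28 h (median 0.12, against 0.13 for all genes), and at most 2 rose at any time from 8 h. Summed sinusoidal endothelial markers (8 of 8 in the table) lay lower in PHx livers without overlap at 4, 8, 12, 20, 28 and 32 h. At 4 h the sums were 6.30 to 6.57, against 7.06 to 7.13 in sham livers. Of the 8 markers, 4 fell at 4 h and none at 32 h. The part of these cells in the changes above was not tested.

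Other genes of the pathways were counted in lists, some of which hold members named above. The lists were chosen with earlier results of these data known, so the counts are a description. Of all genes, 9.32% rose and 37.6% fell at 4 h, and 12.5% rose and 5.87% fell at 20 h. Of 16 STAT3 target genes, 12 rose and none fell at 4 h (median 1.16), and 8 rose at 20 h (median 1.03). The transcription factor Cebpb rose by 4.48 ± 0.47 and the kinase Pim3 by 3.62 ± 0.39 at 4 h (limma). Of 10 NF-kB target genes, 6 rose and 1 fell at 4 h (median 0.90), with the neutrophil-attracting chemokine Cxcl1 at 6.11 ± 0.68 and the stress gene Gadd45b at 3.36 ± 0.45. At 20 h, 6 rose and none fell (median 1.53). At 24 h the adhesion molecule Icam1 rose by 1.35 ± 0.24, the monocyte-attracting chemokine Ccl2 by 2.10 ± 0.49, the protease inhibitor Timp1 by 1.90 ± 0.32 and the fibrinogen chain Fga by 1.31 ± 0.27.

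At 4 h, when 9.32% of all genes rose and 37.6% fell, the JAK and STAT list and the list of its inhibitors also held more falls than rises. Of 10 JAK kinases and STAT factors, 2 rose and 6 fell (median -0.68), among them Stat6 (-1.49 ± 0.15), which acts downstream of IL-4, and the kinase Tyk2 (-1.14 ± 0.15). Of 15 SOCS, PIAS and phosphatase genes, 3 rose and 7 fell. Their median was -0.08, above that of all genes (-0.32), so this list was not lower than the genes at large. The phosphatase Ptpn2 rose by 1.74 ± 0.17 and Ptpn6, a phosphatase abundant in blood cells, fell by 1.79 ± 0.17 on the log2 scale. Of 11 genes for IkB proteins and other NF-kB inhibitors, 4 rose and 3 fell at 4 h and 7 rose at 20 h (medians -0.09 and 0.69). The deubiquitinase Cyld fell by 1.23 ± 0.14 and the A20-binding Tnip2 rose by 1.44 ± 0.24 at 4 h. Of the 5 NF-kB subunits 1 fell at 4 h (Nfkb1, -0.47 ± 0.13) and 2 rose at 20 h.

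Ligands, receptors and adaptors were counted in the same way. Of 3 IL-6 family ligands tested, Il6 rose by 1.13 ± 0.28 and Ctf1, which encodes cardiotrophin, fell by 0.59 ± 0.21 on the log2 scale at 4 h. Of 14 IL-1, TNF and TLR ligands, receptors and decoys, 6 rose and none fell at 4 h, with the TNF receptor Tnfrsf1a at 1.52 ± 0.16 and the decoy receptor Il1r2, which is also in the neutrophil list, at 2.10 ± 0.40. At 24 h Il1rap, the partner chain of Il1r1, fell by 1.01 ± 0.15 on the log2 scale and Tnfrsf1a rose by 0.97 ± 0.16. Of 20 kinases and adaptors upstream of NF-kB, 1 rose and 5 fell at 4 h, when 9.32% of all genes rose and 37.6% fell. The median was -0.26, near that of all genes (-0.32). Irak1 was at -1.08 ± 0.19 and Ripk1 at -0.68 ± 0.12. Of 7 RNA-binding proteins, Zfp36 rose and Rc3h1 (-0.68 ± 0.18) and Rc3h2 (-0.44 ± 0.15) fell. After PHx at 24 h Nfkbiz, which encodes an IkB protein, rose by 1.02 ± 0.25 and the phosphatase Ptpn1 by 1.50 ± 0.25.

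**Figure D3:**
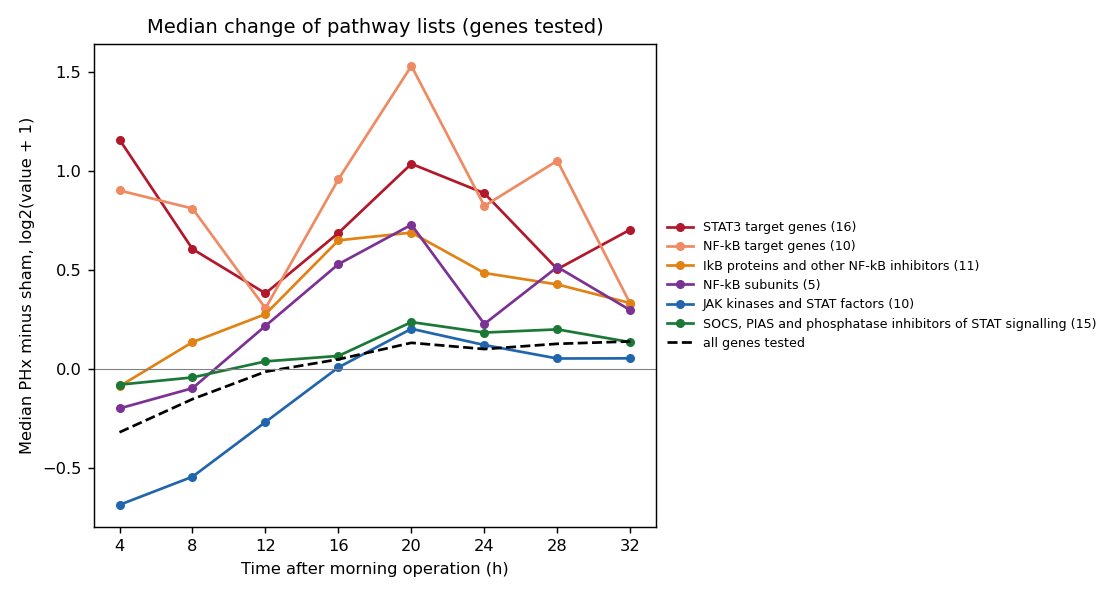
Median PHx minus sham change, in log2(value + 1), of 6 lists of pathway genes at each time after a morning operation, with the number of genes tested in brackets and the median of all genes as a dashed line. The STAT3 target list stands at 1.16 and the JAK and STAT list at -0.68 at 4 h, and the NF-kB target list at 1.53 at 20 h.

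Genes with courses most like those of Socs3 and Il6ra were taken by Pearson correlation over the 16 group means, among 3317 genes with a highest mean of at least 5. For Socs3 they were 2010003K11Rik (r = 0.98), the metallothionein gene Mt2 (0.95) and Cxcl1 (0.94). For Il6ra they were Gm14097 (0.80), Mtss1 (0.78) and Lpin1 (0.77), whose product is a phosphatidate phosphatase. The 16 means share the operation and the times, and the values are a description.

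The comparison of morning with night operation asked whether these levels differed with the hour of surgery and of tissue collection, which moved together. At 4 h after PHx none of the 10 genes differed (limma on TMM-scaled values), and 0.788% of all genes did; with edgeR on recovered reads it was also 0 of the 10, and 0.751% of all genes. Zfp36 had TMM-scaled values of 76.3, 67.7 and 60.1 after morning PHx, against 49.4, 40.1 and 50.8 after night PHx. It was the 1 member whose groups did not overlap (19.3% of all genes) and the 1 with an unadjusted p under 0.05 (13%), at 0.53 ± 0.14 (limma, adjusted p = 0.16). Socs3 had 155, 157 and 146 after morning PHx, against 107, 86.6 and 171 after night PHx, and these overlapped. Il1r1 had 148, 121 and 115 after morning PHx, against 86.2, 122 and 114 after night PHx.

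In sham livers at 4 h, where TPM (reads scaled to transcript length and library size) were deposited, none of the 9 genes tested differed, and 0% of all genes did (limma). The labels of these libraries are in doubt, since time course sham 4 h replicates 1 and 3 matched other labels here, as given above. A mix of morning and night livers could hide differences, so the lack of calls does not show that the hours were alike. The same doubt holds for the levels by hour given below. At an unadjusted p under 0.05 there were 3: Il1r1 (0.84 ± 0.17), Stat3 (0.68 ± 0.21) and Socs3 (0.53 ± 0.18), each with adjusted p = 0.84 (limma), and in each the groups did not overlap, against 11.4% of all genes. Il1r1 had 14.2, 18.8 and 17.3 TPM after morning sham, against 10.4, 7.94 and 8.39 TPM after night sham. Of all genes, 5.86% had an unadjusted p under 0.05. Tnfaip3 was too low to be tested. TPM allows genes to be compared in level: after morning sham Il6st was highest, at 27.0 ± 6.11 TPM (SD, n = 3 here and below). Stat3 (22.4 ± 5.86 TPM), Nfkbia (17.1 ± 4.28), Il1r1 (16.7 ± 2.35), Zfp36 (16.5 ± 3.23), Bcl3 (13.9 ± 4.63), Il6ra (9.67 ± 5.83), Socs3 (4.63 ± 0.817), Tnfaip3 (1.24 ± 0.990) and Osmr (1.15 ± 0.201) followed in that order. Neighbours differed by less than the larger SD of the pair, except Socs3 and Tnfaip3.

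At 24 h after PHx none of the 10 differed between morning and night (edgeR, 0.332% of all genes), nor with DESeq2. At an unadjusted p under 0.05 there were 4, against 9.42% of all genes, all higher after morning PHx: Osmr (0.70 ± 0.29), Tnfaip3 (0.56 ± 0.25), Bcl3 (0.44 ± 0.17) and Zfp36 (0.47 ± 0.15), with adjusted p of 0.47, 0.52, 0.43 and 0.31. Zfp36 had 27.9, 30.8 and 34.4 CPM after morning PHx, against 21.1, 21.2 and 24.9 CPM after night PHx. Zfp36, Bcl3, Tnfaip3 and Il6st were the 4 whose groups did not overlap, against 14.9% of all genes. Il6st had 151, 152 and 139 CPM after morning PHx, against 135, 125 and 119 CPM after night PHx.

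In sham livers at 24 h, 2 of the 10 differed, both lower after morning sham, against 5.35% of all genes that differed and 2.61% that were lower (edgeR). Il6ra had 15.1, 17.2 and 8.83 CPM after morning sham, against 30.8, 38.9 and 37.5 CPM after night sham. All night values were above all morning values, and the change was -1.38 ± 0.23 (edgeR, adjusted p = 0.0063). Nfkbia had 17.2, 16.4 and 18.5 CPM after morning sham, against 35.6, 44.4 and 44.9 CPM after night sham, a change of -1.26 ± 0.16 (edgeR, adjusted p = 9.8e-04). Zfp36 did not overlap either, the last of 3 such members against 23.6% of all genes, with 16.7, 24.9 and 29.9 CPM after morning sham and 35.8, 44.8 and 42.4 CPM after night sham. Its change was -0.78 ± 0.21 (edgeR, adjusted p = 0.054), and it was called by DESeq2 (adjusted p = 0.0086), in the fit of 12 libraries (0.021) and without morning replicate 3 (-0.98, 0.031).

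These sham values can be set beside the time course, where 12 h and 24 h after a morning operation fall on the clock hours of night and morning livers at 24 h. This comparison was chosen after the values were seen, and it shares the morning sham 24 h livers. In sham livers Il6ra averaged 3.33 at 12 h and 1.77 at 24 h, a difference of 1.56 ± 0.27 (limma, adjusted p = 7.7e-05), and Zfp36 4.73 and 3.30, a difference of 1.42 ± 0.36 (adjusted p = 0.0042). Nfkbia averaged 4.07 at 12 h and 3.44 at 24 h, at 0.63 ± 0.30 and not called (adjusted p = 0.16). Between these times 17% of all genes differed in sham livers and 16.3% in PHx livers. In PHx livers Il6ra was also higher at 12 h, by 1.20 ± 0.27 (limma, adjusted p = 0.0021), with Zfp36 at 0.60 ± 0.36 and not called.

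**Figure D4:**
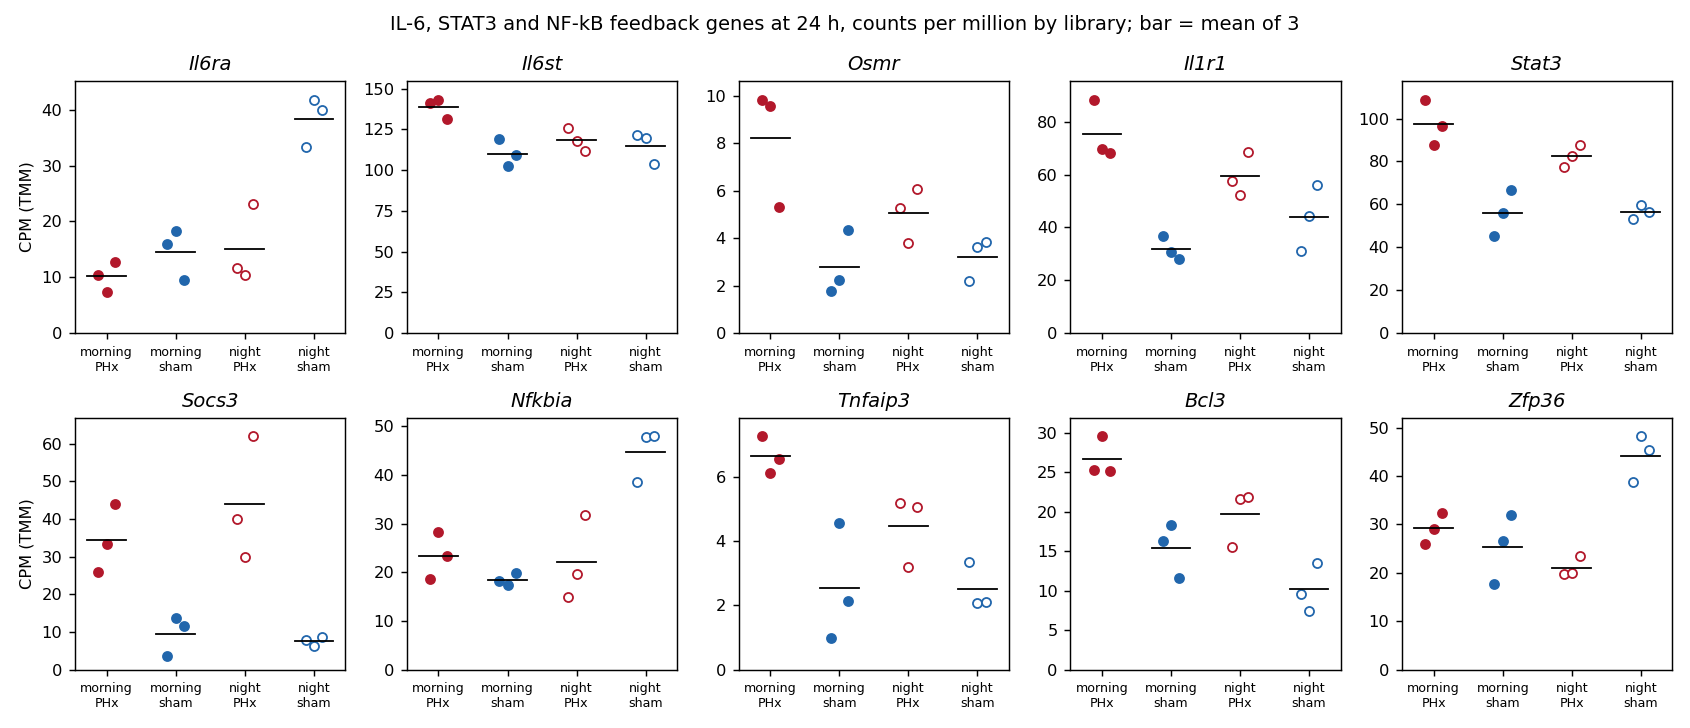
CPM of the 10 genes at 24 h after morning PHx, morning sham, night PHx and night sham, with 1 point per liver and a bar at the mean of 3. Il6ra, Nfkbia and Zfp36 are highest in night sham livers, at 33.3 to 48.2 CPM with all 12 libraries scaled together, and Socs3 is higher after PHx at both hours.

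After a night operation, PHx against sham at 24 h gave 6 changes among the 10 genes, against 23.2% of all genes, of which 11.9% of all genes rose and 11.3% fell (edgeR, 12 libraries scaled together). Socs3 (2.53 ± 0.39), Bcl3 (0.95 ± 0.23) and Stat3 (0.55 ± 0.15) rose, and Il6ra (-1.35 ± 0.30), Zfp36 (-1.06 ± 0.19) and Nfkbia (-1.01 ± 0.23) fell. Mean Socs3 was 44.0 CPM after night PHx and 7.65 CPM after night sham, and mean Zfp36 was 21.1 CPM after night PHx and 44.1 CPM after night sham. The rise of Stat3 was 0.51 and not called without night sham replicate 1 (adjusted p = 0.059). After a morning operation, the same fit gave 6 rises and no fall, against 11.8% of all genes that changed and 6.69% that rose: Socs3 (1.85 ± 0.38), Osmr (1.56 ± 0.37), Tnfaip3 (1.38 ± 0.42), Il1r1 (1.24 ± 0.20), Stat3 (0.80 ± 0.15) and Bcl3 (0.79 ± 0.22). Il6ra was at -0.52 ± 0.30, Nfkbia at 0.34 ± 0.23 and Zfp36 at 0.20 ± 0.19, none called.

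Whether the PHx change at 24 h differed between morning and night was tested directly, as the morning change minus the night change. None of the 10 passed with edgeR, against 0.489% of all genes, and 3 had an unadjusted p under 0.05, against 10.3%. Zfp36 differed by 1.27 ± 0.27 (edgeR, adjusted p = 0.052) and Nfkbia by 1.36 ± 0.33 (adjusted p = 0.091). DESeq2 called both (adjusted p = 0.0027 and 0.010). Nfkbia was at 1.72 and called without night PHx replicate 3, and Zfp36 at 1.47 and called without morning sham replicate 3 (edgeR, adjusted p = 0.013 and 0.028). Il1r1 was at 0.80 ± 0.28, Il6ra at 0.83 ± 0.43 and Socs3 at -0.68 ± 0.53, so the morning and night changes of Socs3 differed by little more than 1 standard error.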

How the data were processed

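Liver polyA RNA of 60 mice was sequenced. The submitters' processing notes list HISAT2 2.1.0 and fastp 0.20.0; no source used here names the read counter or annotation. The time course was deposited as log2(value + 1), with the unit of the value unstated, and the 24 h tables as raw counts, per the file headers. Values of the 4 h sham table are TPM, per the file headers. The 4 h PHx table has the same heading, but its signal, as deposited, behaves as reads multiplied by a factor fixed for each gene: 100% of values became whole within 0.01 after division by the factors of the 24 h tables (11724 of 11840 genes). The 6 columns that match no labelled sample and the authors' own tests were not used.

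Here, limma 3.58.1 in R 4.3.3 (two-sided, trended eBayes) was run on the log2 values of 48 libraries with 1 mean per group. Genes needed 1 or more in 3 libraries (12957 genes). It was also run on log2(TMM-scaled signal + 1) at 4 h PHx (9774 genes) and log2(TPM + 1) at 4 h sham (11391). edgeR 4.0.16 (TMM, filterByExpr, quasi-likelihood) was run on the 24 h counts: 12658 genes for PHx, 12345 for sham, and 12056 in 12 libraries. All p-values were Benjamini-Hochberg adjusted over the genes of a comparison. CPM are TMM-scaled within each fit. Tests were checked on simulated data. A minimum recovery was required of the limma fit of 48 libraries and of edgeR, but not of the limma tests of morning against night at 4 h. The 24 h libraries held 24.6 to 30.2 M reads, and those of 4 h PHx, by recovered reads, 24.9 to 30.6 M. Alternatives were DESeq2 1.42.0, other scaling, pseudocounts and filters, a replicate block, single time points and leaving out each library. The figures were drawn with matplotlib 3.10.9 in Python 3.11.15. The members and gene lists were chosen with earlier results of these data known. Of each list, at most 2 genes at 4 h and 2 at 24 h, those with the smallest adjusted p, are named; for Socs3 and Il6ra, the 3 most alike genes.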

Additional observations from a re-analysis of the deposited data

Results flagged for a closer look

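For 5 genes the PHx minus sham change differed between times, by the limma F-test of operation by time over 48 libraries and all genes. Of all genes, 43.5% passed the same test, so a pass alone does not set these genes apart. The adjusted p was 0.00078 for Il6st, 0.00095 for Zfp36, 0.00096 for Socs3, 0.0012 for Il1r1 and 0.0045 for Bcl3. For Il6st the change was -0.38 at 4 h and 0.75 at 8 h, and for Zfp36 1.61 at 4 h and -1.31 at 8 h. For Socs3 it was 4.51 at 4 h and 1.82 at 24 h, for Il1r1 3.37 at 8 h and 0.72 at 28 h, and for Bcl3 2.10 at 8 h and 0.67 at 24 h. Library ID series change along the time course, and their part in these differences was not tested beyond the fit of 8 to 20 h alone.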

How the results depend on the processing

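The cause of the changes listed here was not tested. With only the libraries of a time in the fit, the members called were 2 (against 6) at 16 h, 3 (against 7) at 20 h and 0 (against 5) at 28 h. TMM scaling gave 2 (against 4) at 24 h and turned the Il6st change at 4 h to 0.0925. With only 8 to 20 h, 2 (against 5) differences, 3 (against 6) sham levels and 5 (against 8) PHx levels varied with time. Leaving out 1 library gave 5 to 8 members at 4 h, 7 to 7 at 8 h, 2 to 4 at 12 h, 4 to 6 at 16 h, 6 to 7 at 20 h, 2 to 3 at 24 h, 3 to 5 at 28 h and 2 to 5 at 32 h, and 5 to 7 for PHx against sham after night operation. It gave 2 to 3 for sham morning against night at 24 h, 0 in the other morning and night comparisons and 0 to 1 for the difference of the PHx response. That last count was 2 with DESeq2 and 2 with the replicate block. Samples of 1 number deviated together (r over 0.1) in 9 of 39 pairs, and in 0 of 13 comparisons did every pair do so. In 21 of the 39 pairs the best match was the sample of the same number. These values do not settle whether the numbers pair the livers. With the replicate block in the fit, 3 (against 2) members differed in sham at 24 h, the added one being Zfp36 (-0.82), 3 (against 4) changed at 24 h after morning PHx, where Il1r1 was lost, and 7 (against 6) sham levels varied with time; beside these, and Zfp36 and Nfkbia in the difference of the PHx response, it changed no call. Filters and pseudocounts moved no count by over 1.5 times, but Tnfaip3 at 24 h was 1.63, against 0.83, with a pseudocount of 0.1. The low levels of Osmr and Tnfaip3 (0.178 to 2.14 TPM in 4 h sham livers) limit their precision.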
